A study of Oryctolagus cuniculus with 12 samples.

Results

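The interferon response gene families were followed in the rabbit basilar artery, the vessel on the underside of the brain stem, before and after experimental subarachnoid hemorrhage, in which blood enters the space around the brain. Members were chosen by gene symbol alone: every gene on the array whose symbol begins as those of the IRF, STAT, IFI, OAS, ISG, GBP and TRIM families do, together with MX1, MX2, RIGI, DHX58, SAMHD1, USP18, RSAD2 and XAF1 where the array named them. This rule found 55 genes on 108 probes, and 36 of them, on 61 probes, were tested because a probe of theirs was well above background throughout at least 1 group of 3 arrays, of 7384 named genes tested in all. The tested members were 3 RNA sensors, 4 STAT and 3 IRF transcription factors, 8 effectors and 18 TRIM proteins, and 19 members were not tested. A further 12 rabbit loci belong to these families by the array's wording but carry no family symbol. They were kept apart from the count, and 11 of them were tested.

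The 12 samples were basilar arteries of Oryctolagus cuniculus, the European rabbit, each hybridised to 1 single-colour Agilent array. The 4 groups of 3 were normal controls, which the series calls day 0, and arteries taken 3, 5 and 7 days after the hemorrhage. The labels give no strain, age, sex, way of producing the bleed or treatment, and no label states whether a group's samples came from different animals. Every p-value therefore reflects sample-to-sample spread alone, and that spread may be technical. The design addresses how expression in the artery develops over the days after the bleed.

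Interferons are secreted proteins that warn neighbouring cells of infection or damage. Both type I interferons and interferon gamma act through receptor-bound JAK kinases on STAT transcription factors, which switch on a large set of interferon-stimulated genes, for type I interferons together with IRF9. Cytosolic sensors of double-stranded RNA, RIG-I and MDA5, can start interferon production, and several sensors and effectors are themselves induced, which feeds the loop. In arteries both wall cells and the immune cells that enter the wall can respond.

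Values are log2 signals from which the array's own 75th percentile was subtracted, so 0 is that percentile and positive differences mean a higher signal. A gene is called changed at an adjusted p below 0.05 in limma (Benjamini-Hochberg over all 26434 tested probes). The 75th percentile lay between 127 and 191 intensity units over the arrays, no spot was saturated, and the number of arrays limits the precision. Spots well above background made up 50.1% of control replicate 2, while the other 11 arrays had 58.2% to 64.0%. Each slide held 1 array of every group, always in the same place on the slide, so that place cannot be told apart from the group. Of 10 contractile smooth muscle markers listed as a check of the labelled tissue, 9 were tested and each was well above background on all 12 arrays, among them MYL9, myosin light chain 9, at 6.82 ± 0.20 on day 3 and 7.46 ± 0.16 in controls (SD, n = 3 each).

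The probes show what the array read. XAF1, the marker gene of this response, had 2 probes that are nearly the same stretch, so their values are not separate measurements. The second probe gave 2.19, 1.94 and 1.57 on days 3, 5 and 7 and was called only on day 3 (adjusted p = 0.0274, 0.0855 and 0.133). Capitals mark the 53 bases they share. The array places the first at chr19:13930709-13930768 and the second at chr19:13930702-13930761, both on the plus strand, in coordinates whose genome build is not given in the sources used here.
XAF1, used for the gene: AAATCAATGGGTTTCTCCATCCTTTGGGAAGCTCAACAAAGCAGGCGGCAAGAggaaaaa
XAF1, second probe: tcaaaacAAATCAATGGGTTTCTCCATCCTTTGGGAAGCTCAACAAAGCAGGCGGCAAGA

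For IFIH1, the gene of the RNA sensor MDA5, the 2 probes overlap by the 30 bases in capitals. The first lies within chr7:101418444-101418619 on the minus strand, a span of 176 bases of genome for a 60-base probe, so it cannot lie there as 1 unbroken block. The second lies without a gap at chr7:101418414-101418473 on the same strand.
IFIH1, used for the gene: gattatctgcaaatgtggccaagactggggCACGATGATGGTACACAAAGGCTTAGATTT
IFIH1, second probe: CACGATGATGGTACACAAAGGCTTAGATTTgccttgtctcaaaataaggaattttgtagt

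For RIGI, the gene of RIG-I, the 2 probes abut without sharing a base, at chr1:21009315-21009374 and chr1:21009375-21009434 on the plus strand, and so read neighbouring parts of the transcript.
RIGI, used for the gene: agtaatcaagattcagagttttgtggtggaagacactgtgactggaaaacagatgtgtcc
RIGI, second probe: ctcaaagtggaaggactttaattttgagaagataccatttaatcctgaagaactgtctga

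After the hemorrhage, 11 of the 36 tested members were higher than in controls on day 3, 8 on day 5 and 6 on day 7, and 0 were lower on any day. Over all named genes, 4.89% were called higher on day 3, 1.95% on day 5 and 1.99% on day 7, and 2.06%, 0.217% and 0.582% were called lower. In either direction the shares were 6.95%, 2.17% and 2.57%. Later counts for single families and lists are to be read beside the same shares. Among the called members were the RNA sensors RIGI, IFIH1 and DHX58, the transcription factor STAT4, the effectors XAF1, OASL, IFIT3, USP18, IFI35 and IFI44, and 1 TRIM gene, TRIM5. RIGI, IFIH1, STAT4 and OASL were called on all 3 days. The median change over the 18 members outside the TRIM family was 1.08 on day 3, 1.19 on day 5 and 0.95 on day 7, while that over the 18 TRIM genes was -0.10, 0.01 and -0.02, and that over all named genes 0.00, 0.02 and 0.03. Members that passed only because a day was bright had to differ, so the counts were also taken over the 22 members well above background on all 12 arrays: 6, 4 and 3 were higher, against 4.05%, 1.43% and 1.59% of all such genes. An F test over the 3 days called 8 of 36 members, against 3.3% of all named genes.

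All 3 arrays of a day lay above all 3 controls for 18 of 36 members on day 3, 15 on day 5 and 15 on day 7. Over all genes this held for 13.8%, 10.2% and 12.3%. These counts include members that passed the filter only through a bright day. Of the 22 members above background on all 12 arrays it held for 10, 8 and 8. The share over all genes under that filter was not taken, so those counts have no matched background. All 3 arrays of a day lay below all controls for 2 members on each day, against 11.4%, 6.86% and 11% of all genes. The counts of calls moved with the background correction and with single arrays. With normexp correction in place of the deposited background subtraction, 7, 2 and 2 members were called on days 3, 5 and 7, and the changes of the dim genes XAF1, OASL, IFIT3, IFI35 and STAT4 were smaller. Normexp was run with an offset of 50 intensity units added to every spot, which by construction makes the log2 changes of dim spots smaller. Without control replicate 2, 7 members were called on day 3. The day 5 count was 4 without control replicate 1 or day 5 replicate 3, and 5 without control replicate 2 or day 5 replicate 1 or 2. On day 7, the count was 2 without control replicate 1 or 2 or day 7 replicate 3, 3 without day 5 replicate 2 or day 7 replicate 1 or 2, and 10 without day 5 replicate 3.

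**Figure D1:**
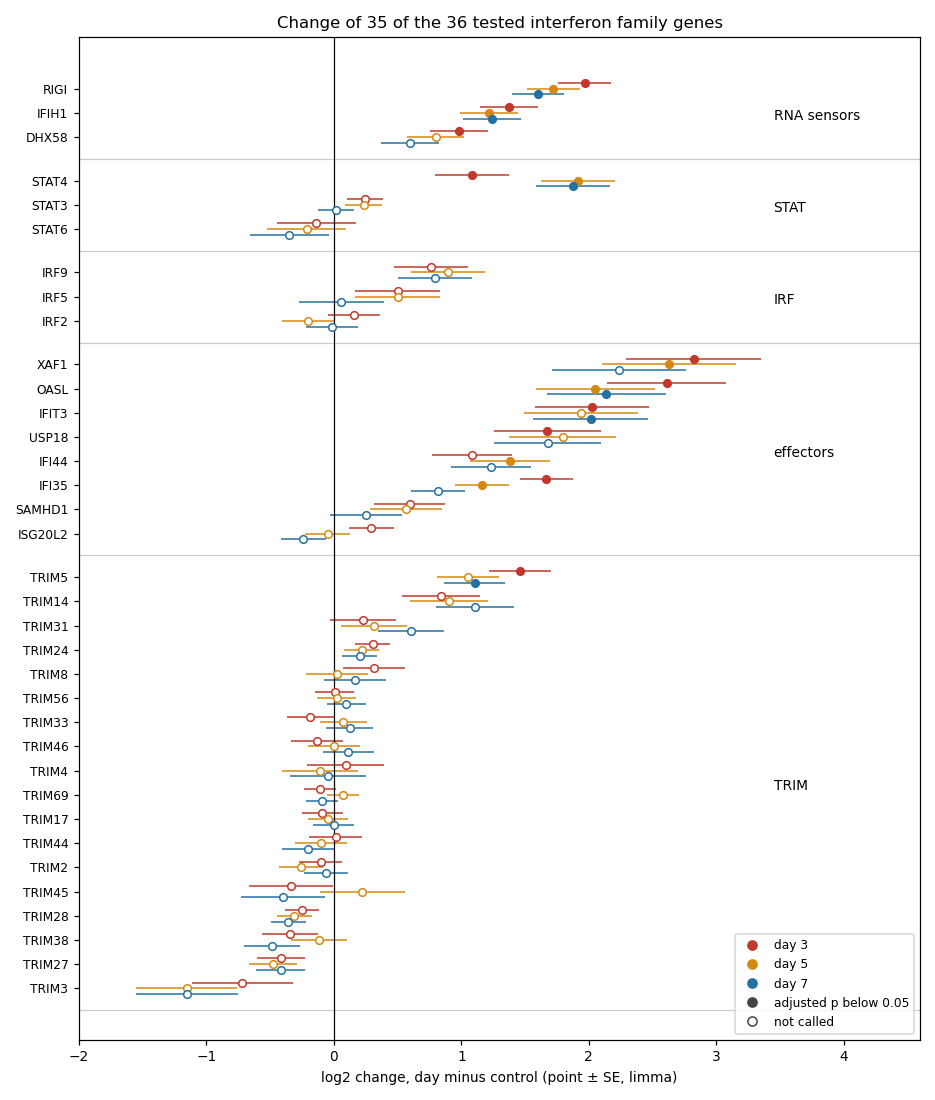
Log2 change of 35 of the 36 tested members, day minus control (x axis), with its SE from limma, for day 3, day 5 and day 7, grouped by role (y axis); filled points have an adjusted p below 0.05. Filled points lie in the sensors, the effectors, STAT4 and TRIM5, and the other 17 TRIM genes lie on both sides of 0.

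The 3 cytosolic RNA sensors of the family were all higher on day 3. RIGI, which recognises short viral-type RNA ends, stood at -0.83, -0.61 and -0.93 in the controls, 0.84, 1.71 and 0.98 on day 3, 0.82, 0.99 and 0.99 on day 5, and 0.73, 0.81 and 0.89 on day 7. Every array of each day lay above all controls, and the day 5 and day 7 arrays lay close together. RIGI was 3.91-fold higher on day 3 (log2 change 1.97, SE 0.21, limma adjusted p = 0.000338), 3.3-fold on day 5 (adjusted p = 0.00196) and 3.03-fold on day 7 (adjusted p = 0.00297). Its 3 calls held in all 21 alternative analyses, and its second probe changed by nearly the same amounts, 2.01, 1.73 and 1.56.

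IFIH1, whose product MDA5 binds long double-stranded RNA, stood at 1.60, 1.35 and 1.73 in the controls, 2.78, 3.26 and 2.78 on day 3, 2.51, 2.59 and 3.24 on day 5, and 2.52, 2.90 and 3.00 on day 7. The groups of each day lay clear of the controls, and the highest arrays were replicate 2 on day 3 and replicate 3 on days 5 and 7. IFIH1 was 2.6-fold higher on day 3 (log2 change 1.38, SE 0.23, limma adjusted p = 0.00529), 2.33-fold on day 5 (adjusted p = 0.0204) and 2.36-fold on day 7 (adjusted p = 0.0186). The day 5 call was lost without control replicate 1 or 2 or day 5 replicate 3 (adjusted p 0.0558 to 0.0718), and with normexp correction (0.91, adjusted p = 0.0715), no filter on dim probes (0.0523) or only the 2 groups compared (0.0894). The day 7 call was lost without control replicate 1 or 2 or day 7 replicate 2 or 3 (adjusted p 0.0554 to 0.08), and with no filter on dim probes (0.0513). The second IFIH1 probe gave 1.09, 0.92 and 0.97 on days 3, 5 and 7. It was not called on day 5 (limma adjusted p = 0.015, 0.0632 and 0.047).

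DHX58 encodes LGP2, which lacks the signalling domain of the other 2 sensors and tunes their activity. It averaged 0.28 ± 0.23 in controls, 1.26 ± 0.29 on day 3, 1.08 ± 0.40 on day 5 and 0.87 ± 0.17 on day 7 (SD, n = 3 each). Only day 3 was called (log2 change 0.98, SE 0.23, limma adjusted p = 0.0267), against adjusted p = 0.115 on day 5 and 0.202 on day 7. The day 3 call was lost without control replicate 2 or 3 or day 3 replicate 2 or 3 (adjusted p 0.0596 to 0.0982), with no filter on dim probes (0.0667), with only the 2 groups compared (0.0595) and for the mean of its probes (0.075), and its second probe, at 0.55, was not called.

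Of the STAT family, which carry the signal from the receptor to the nucleus, STAT4 was higher on all 3 days at the probe used. STAT3 and STAT6 passed on no day. STAT4, which relays interleukin-12 and type I interferon in lymphocytes and myeloid cells, stood at -3.61, -2.94 and -2.95 in the controls, of which 2 were above background, -1.90, -2.26 and -2.10 on day 3, -1.36, -1.70 and -0.70 on day 5, and -1.62, -1.40 and -0.83 on day 7. The day 5 and day 7 arrays lay above the day 3 arrays without overlap. STAT4 was 3.76-fold higher on day 5 (log2 change 1.91, SE 0.29, limma adjusted p = 0.0063) and 3.68-fold on day 7 (adjusted p = 0.00763), against 2.11-fold on day 3 (adjusted p = 0.0488). The day 3 call was lost when any of 9 of the 12 arrays was left out (adjusted p up to 0.159), and with normexp background correction the changes were 0.25, 0.87 and 0.69, of which only day 5 was called (adjusted p = 0.596, 0.0416 and 0.101). Day 5 against day 3 gave a difference of 0.83 (unadjusted p = 0.015, adjusted p = 0.552), which was not called. The second STAT4 probe gave 0.67, 1.37 and 1.45 on days 3, 5 and 7. It was called only on day 7 (limma adjusted p = 0.274, 0.0634 and 0.0474). For the mean of the STAT4 probes the day 3 call was lost (0.87, adjusted p = 0.0954).

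STAT3, activated by interleukin-6 type cytokines, averaged 0.96 ± 0.10 in controls, 1.21 ± 0.04 on day 3, 1.20 ± 0.14 on day 5 and 0.98 ± 0.18 on day 7 (SD, n = 3 each), with a day 3 change of 0.25 (95% interval -0.07 to 0.56, adjusted p = 0.357). STAT6, activated by interleukin-4 and interleukin-13, averaged -3.04 ± 0.56 in controls, of which 2 were above background, -3.17 ± 0.29 on day 3, -3.25 ± 0.44 on day 5 and -3.39 ± 0.34 on day 7 (SD, n = 3 each; adjusted p = 0.851, 0.824 and 0.59).

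The IRF family, transcription factors that drive interferon genes or their targets, had 3 tested members, and 0 were called. IRF9, the DNA-binding part of the complex that type I interferons activate, stood at -3.37 ± 0.68 in controls, -2.61 ± 0.11 on day 3, -2.47 ± 0.06 on day 5 and -2.57 ± 0.36 on day 7 (SD, n = 3 each). Only 1 of 3 controls was above background for IRF9, all arrays of each day lay above all controls, and the changes of 0.76, 0.90 and 0.80 missed the threshold (adjusted p = 0.149, 0.161 and 0.184). IRF5, which acts downstream of Toll-like receptors in myeloid cells, gave 0.50, 0.50 and 0.06, and IRF2, an antagonist of IRF1, gave 0.16, -0.20 and -0.02. IRF1, IRF4 and IRF8 were among the members not tested. IRF8, a factor of myeloid and dendritic cells, was above background on 2 of the 3 controls, 0 arrays on day 3, 2 on day 5 and 1 on day 7.

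Effectors are here all members other than the RNA sensors and the STAT, IRF and TRIM genes. Many of them carry out the interferon response or shut it down. Of the 8 tested effectors, 5 were higher on day 3, 4 on day 5 and 2 on day 7. Over all named genes, 4.89%, 1.95% and 1.99% were called higher. The called effectors XAF1, OASL, IFIT3 and IFI35 were not above background on every control, so they passed the filter only through days after the bleed. XAF1, which promotes cell death by opposing the inhibitor of apoptosis XIAP, had the largest change of the 36 tested members on each of the 3 days, though not with normexp correction. It stood at -2.99, -2.71 and -4.63 in the controls, of which 1 was above background, -0.83, 0.30 and -1.34 on day 3, -1.26, -1.13 and -0.05 on day 5, and -1.44, -1.10 and -1.08 on day 7. All 9 arrays after the bleed lay above the 3 controls, and control replicate 3 was the lowest of the 12. XAF1 was 7.07-fold higher on day 3 (log2 change 2.82, SE 0.53, limma adjusted p = 0.00988) and 6.18-fold on day 5 (adjusted p = 0.0288), and on day 7 the change of 2.24 missed the threshold (adjusted p = 0.0536). The day 3 call held in all 20 alternative analyses that tested the gene, but with normexp correction its size was 1.02 (adjusted p = 0.0308). The day 5 call was lost without day 5 replicate 1, 2 or 3 (adjusted p 0.0555 to 0.0949), with normexp correction (adjusted p = 0.0727, at a size just under that of day 3), with no filter on dim probes (0.0606) and with only the 2 groups compared (0.0969). The differences were 2.16, 3.01 and 3.29 on the 3 slides on day 3, and 1.72, 1.58 and 4.58 on day 5.

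OASL, an oligoadenylate synthetase-like protein that enhances RIG-I signalling, stood at -3.96, -4.05 and -5.04 in the controls, of which 1 was above background, -1.77, -0.79 and -2.65 on day 3, -2.90, -2.33 and -1.67 on day 5, and -2.60, -2.11 and -1.93 on day 7. No array of a day overlapped the controls, and on day 3 the arrays spread over almost 2 log2 units. OASL was 6.11-fold higher on day 3 (log2 change 2.61, SE 0.46, limma adjusted p = 0.00765), 4.15-fold on day 5 (adjusted p = 0.0482) and 4.4-fold on day 7 (adjusted p = 0.0385). With normexp background correction the changes were 0.65, 0.75 and 0.57 and it was called on no day (adjusted p = 0.129, 0.129 and 0.313). A block for the slide ended the day 5 call (adjusted p = 0.0609). So did quantile normalization (0.0544), the authors' values (0.0555), array weights (0.0588), no filter on dim probes (0.0963) and only the 2 groups compared (0.0788). The day 7 call was lost with no filter on dim probes (0.0892). The day 5 call was lost when any of 10 arrays was left out and the day 7 call with any of 8 (adjusted p up to 0.138 and 0.133).

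IFIT3, a tetratricopeptide protein that binds other IFIT proteins on foreign RNA, stood at -2.85, -3.06 and -3.43 in the controls, of which 2 were above background, -1.31, 0.12 and -2.08 on day 3, -1.45, -1.44 and -0.63 on day 5, and -1.39, -0.94 and -0.96 on day 7. The means of the 3 days were nearly equal and the spread was widest on day 3. IFIT3 was 4.07-fold higher on day 3 (log2 change 2.02, SE 0.45, limma adjusted p = 0.0227) and 4.04-fold on day 7 (adjusted p = 0.0424), and day 5 missed the threshold with 1.94 (adjusted p = 0.0534). The day 3 call was lost without control replicate 2 or 3 (adjusted p = 0.0543 and 0.0582), and the day 7 call when any of 9 arrays was left out (adjusted p up to 0.135). With normexp correction the day 3 and day 7 changes were 0.80 and 0.77 and neither was called (adjusted p = 0.114 and 0.224). A block for the slide ended the day 7 call (adjusted p = 0.0509).

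IFI35, an interferon-induced leucine zipper protein that partners NMI, had the smallest spread among controls of the called effectors. It stood at -2.67, -2.77 and -2.82 in the controls, of which 2 were above background, -1.33, -0.85 and -1.08 on day 3, -1.93, -1.76 and -1.09 on day 5, and -1.90, -1.91 and -2.01 on day 7. Its values were highest on day 3 and closer to the controls on day 7. IFI35 was 3.17-fold higher on day 3 (log2 change 1.67, SE 0.21, limma adjusted p = 0.000969) and 2.24-fold on day 5 (adjusted p = 0.0166), and 0.82 on day 7 missed the threshold (adjusted p = 0.0696). With normexp correction the day 3 change was 0.67 (adjusted p = 0.0263) and the day 5 call was lost (0.61, adjusted p = 0.0827), as it was with only the 2 groups compared (0.105). Day 7 against day 3 gave -0.85 (unadjusted p = 0.00176, adjusted p = 0.188), which was not called. With array weights that difference passed (-0.89, adjusted p = 0.0362).

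USP18, a protease that removes ISG15 from proteins and blocks the type I receptor, averaged -1.49 ± 0.38 in controls, 0.19 ± 1.07 on day 3, 0.31 ± 0.16 on day 5 and 0.19 ± 0.33 on day 7 (SD, n = 3 each). Only day 3 passed (log2 change 1.67, SE 0.42, limma adjusted p = 0.0388), against 0.0567 and 0.0658 on days 5 and 7, where the changes were 1.79 and 1.68. The day 3 call was lost when any of 9 arrays was left out (adjusted p up to 0.09), with normexp correction (1.08, adjusted p = 0.059) and for the mean of its probes (0.0616). The second USP18 probe gave 1.56, 1.63 and 1.56 and was called on no day (limma adjusted p = 0.0875, 0.137 and 0.126). IFI44, an interferon-induced protein with antiviral activity, averaged -1.52 ± 0.14 in controls, -0.44 ± 0.62 on day 3, -0.14 ± 0.50 on day 5 and -0.29 ± 0.29 on day 7 (SD, n = 3 each). Only day 5 passed (log2 change 1.38, SE 0.31, limma adjusted p = 0.0488), and that call was lost when any of 10 arrays was left out (adjusted p up to 0.135), with normexp correction (0.85, adjusted p = 0.0767) and under a block for the slide (adjusted p = 0.0737). Day 5 against day 3 gave 0.12 for USP18 and 0.30 for IFI44, neither of which was called (adjusted p = 0.988 and 0.938).

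SAMHD1, a nucleotide hydrolase that starves reverse transcription, averaged -2.94 ± 0.30 in controls, -2.35 ± 0.28 on day 3, -2.38 ± 0.08 on day 5 and -2.69 ± 0.63 on day 7 (SD, n = 3 each), with differences of 0.59, 0.56 and 0.25 (adjusted p = 0.252, 0.402 and 0.686). ISG20L2, a nucleolar exonuclease related to ISG20, gave 0.29, -0.05 and -0.24 and was not called. Its day 7 against day 3 difference was -0.53 (unadjusted p = 0.0114, adjusted p = 0.317).

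**Figure D2:**
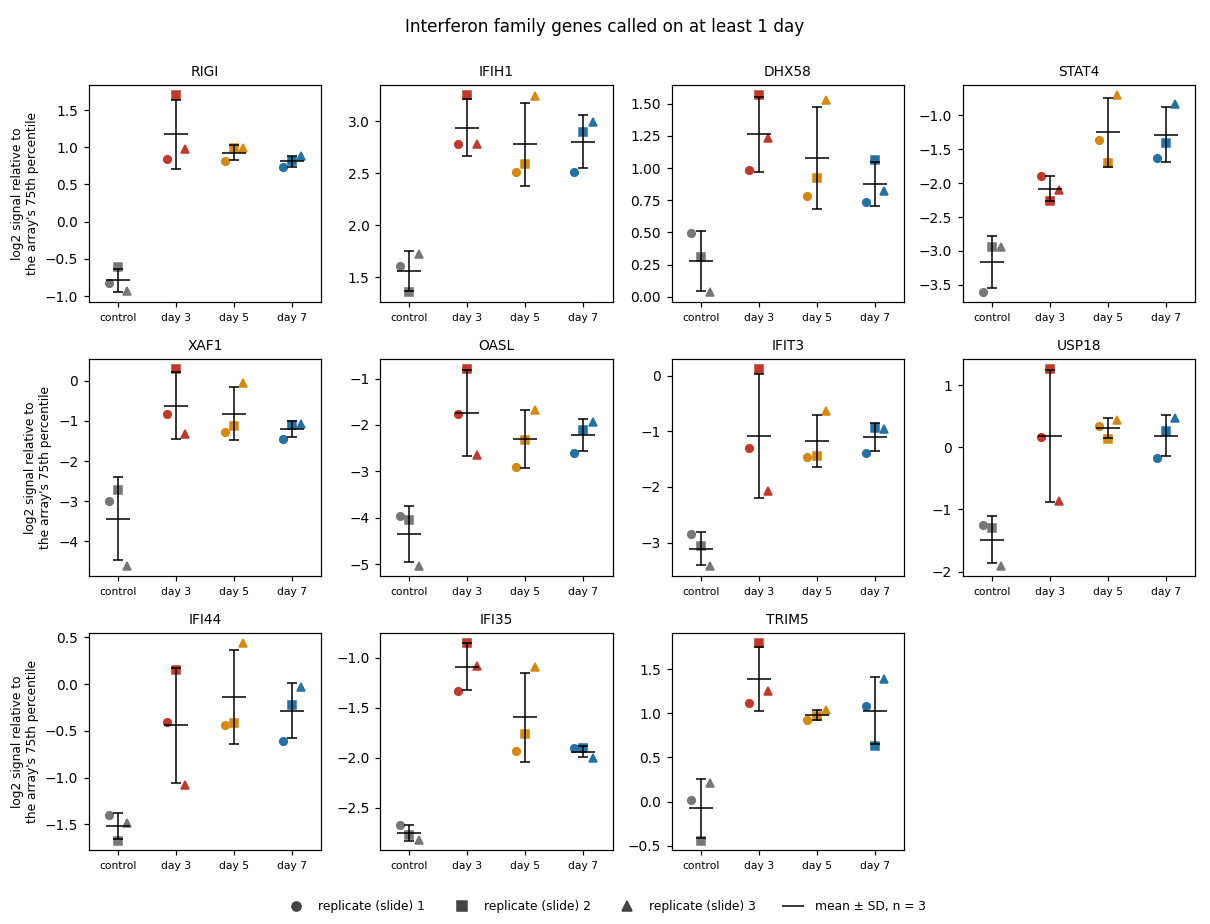
Log2 signal relative to the array's 75th percentile (y axis) in every array of the controls, day 3, day 5 and day 7 (x axis) for 11 of the 12 members called on at least 1 day; marker shape gives the replicate, which is also the slide, and bars give the mean ± SD (n = 3). RIGI rose to between 0.73 and 1.71 after the bleed, against at most -0.61 in controls, and the 3 day 3 values of STAT4 lie below all its values on days 5 and 7.

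The TRIM family holds many RING-finger ubiquitin ligases, and some of its members restrict viruses or regulate RNA sensing. It made up 18 of the 36 tested members and had 1 called gene on day 3, 0 on day 5 and 1 on day 7. That gene was TRIM5, whose product recognises retroviral capsids. TRIM5 stood at 0.01, -0.44 and 0.21 in the controls, 1.12, 1.80 and 1.25 on day 3, 0.93, 0.97 and 1.04 on day 5, and 1.08, 0.63 and 1.38 on day 7. Every array after the bleed lay above every control. TRIM5 was 2.75-fold higher on day 3 (log2 change 1.46, SE 0.24, limma adjusted p = 0.00513) and 2.15-fold on day 7 (adjusted p = 0.0391), while day 5, with 1.05, missed the threshold (adjusted p = 0.0508). The day 3 call held in all 21 alternatives and on all 3 of its probes, and the day 7 call was lost when any of 7 arrays was left out (adjusted p up to 0.141). On day 7 only 1 of the 3 probes was called, and the call was lost for the mean of its probes (adjusted p = 0.066) and with normexp correction (adjusted p = 0.0514).

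Among the other 17 TRIM genes, day 3 changes ran from -0.72 for TRIM3 to 0.84 for TRIM14. TRIM14, an adaptor of MAVS signalling, gave 0.84, 0.90 and 1.11 (adjusted p = 0.134, 0.184 and 0.0875), with 1 of 3 controls above background. TRIM56, which has a role in interferon induction, gave 0.01, 0.02 and 0.10 with controls at -0.44 ± 0.14 (SD, n = 3). TRIM28, a corepressor that silences endogenous retroviruses, gave -0.25, -0.31 and -0.36 and lay below all controls on every array of each day, yet it was not called (adjusted p = 0.325, 0.324 and 0.205). TRIM27 gave -0.41, -0.48 and -0.42 without a call. TRIM3, TRIM14, TRIM27, TRIM28 and TRIM56 were chosen for mention after their values were seen. Among well-known family genes, IRF3, ISG15, RSAD2, OAS1, IFIT2, TRIM21 and TRIM25 carried no symbol in the probe annotation used and are not analysed here. The 15 untested TRIM genes were not well above background on all arrays of any group.

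Family loci that the array names in words were described in the same way. Of the 11 tested, 4 were higher on day 3, 4 on day 5 and 4 on day 7, the same loci each day. The shares over all named genes were 4.89%, 1.95% and 1.99%. LOC100358763, named interferon regulatory factor 7, the master factor of type I interferon production, stood at 3.40, 3.31 and 3.40 in the controls, 5.44, 5.69 and 4.74 on day 3, 5.05, 4.89 and 6.06 on day 5, and 5.28, 5.96 and 5.50 on day 7. Its controls lay close together and below every other array. It was 3.78-fold higher on day 3 (log2 change 1.92, SE 0.32, limma adjusted p = 0.00559), 3.89-fold on day 5 (adjusted p = 0.00978) and 4.63-fold on day 7 (adjusted p = 0.00578), and these calls held in all 21 alternatives.

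LOC100349257, named guanylate-binding protein 5, a GTPase that promotes inflammasome assembly, changed by 2.07, 1.84 and 1.54 on days 3, 5 and 7 (adjusted p = 0.000817, 0.00379 and 0.00988). These calls held in all 20 alternatives that tested it, with smaller sizes of 1.03, 0.97 and 0.75 under normexp correction. The filter for probes well above background on every array did not test LOC100349257. Its probe was thus not well above background throughout, and its changes may be partly not measured. Which arrays fell short is not given here. LOC100358539, named interferon-induced guanylate-binding protein 1-like, changed by 2.39, 2.06 and 1.57 (adjusted p = 0.00127, 0.0063 and 0.0263). It averaged -1.85 ± 0.54 in controls, 0.54 ± 0.35 on day 3, 0.21 ± 0.53 on day 5 and -0.28 ± 0.20 on day 7 (SD, n = 3 each), and the day 7 call was lost without control replicate 1 or day 7 replicate 1, 2 or 3 (adjusted p 0.0602 to 0.101), with no filter on dim probes (0.0657) or with only the 2 groups compared (0.0553). With only the 2 groups compared its day 5 call was lost too (adjusted p = 0.0575), and its normexp sizes were 1.53, 1.28 and 0.91. For both guanylate-binding loci the day 7 mean was below the day 3 mean, with differences of -0.53 for LOC100349257 and -0.82 for LOC100358539 that were not called (adjusted p = 0.463 and 0.375).

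LOC100342321 and LOC100342069 are both named interferon-induced protein with tetratricopeptide repeats 1-like, after a family that binds RNA lacking the host cap. LOC100342321 changed by 2.30, 2.56 and 2.68 (adjusted p = 0.0273, 0.0341 and 0.0261), and its calls were lost when any of 4, 7 and 4 arrays was left out on the 3 days (adjusted p up to 0.107), that of day 5 also with normexp correction (1.73, adjusted p = 0.0727). LOC100342069 gave 1.79, 2.22 and 2.32 and was not called (adjusted p = 0.106, 0.0971 and 0.0721); its day 3 arrays spread from -1.60 to 1.48. LOC100359014, named myxovirus resistance protein 1, the dynamin-like GTPase MX1, gave 0.71, 0.84 and 0.83 (adjusted p = 0.249, 0.265 and 0.225). The interferon inducible Mx-2 locus gave 1.18, 1.18 and 1.07 (adjusted p = 0.066, 0.126 and 0.136), and under a block for the slide its day 3 value passed (adjusted p = 0.0496). LOC100008867, named interferon responsive gene 15, gave 0.14, 0.06 and 0.35, and the loci named STAT5B-like, TRIM26 and TRIM47 were not called either.

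**Figure D3:**
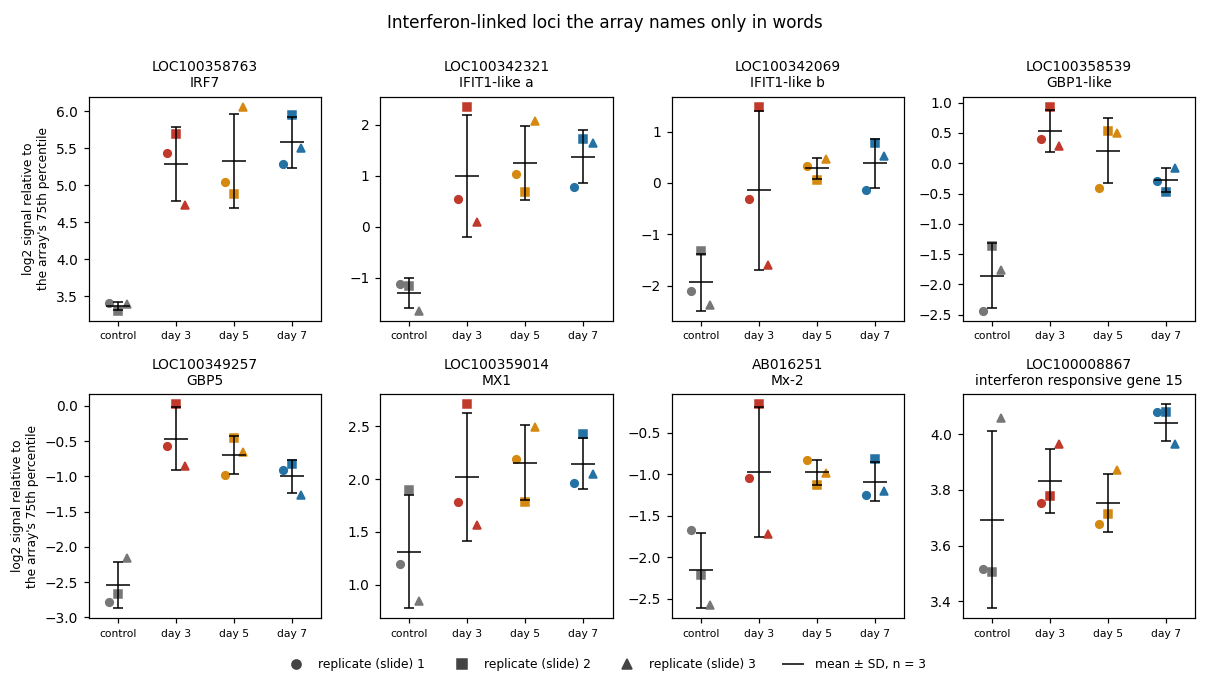
Log2 signal relative to the array's 75th percentile (y axis) in the controls and on days 3, 5 and 7 (x axis) for 8 interferon-linked loci that carry no family symbol; marker shape gives the replicate and bars the mean ± SD (n = 3). For IRF7, GBP5, GBP1-like and 1 of the 2 IFIT1-like loci, every array of each day lay above all controls, whereas MX1 overlapped its controls on days 3 and 5.

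Days were also compared with each other. None of the 36 members was called for day 5 against day 3, day 7 against day 3 or day 7 against day 5 in limma, at an adjusted p below 0.05. Over all named genes 0, 8 and 0 were called, which for day 7 against day 3 is 0.108% (0.0135% higher and 0.0948% lower). At an unadjusted p below 0.05, 2, 3 and 0 of the 36 members passed, of which IFI35, ISG20L2 and STAT4 are given above. Of all 7384 named genes, 556, 871 and 131 passed at the same threshold, so the member counts do not stand out from that background. XAF1 differed by -0.19 between day 5 and day 3 (95% interval -1.35 to 0.96) and by -0.58 between day 7 and day 3 (95% interval -1.74 to 0.57), and both intervals hold 0.

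Within slides, where each day's array was set against the control array of the same slide, all 108 differences of the 12 called members over the 3 days and 3 slides were above 0, between 0.24 and 4.58. These members were chosen by their change, so the direction is a description. The widest ranges belonged to XAF1, OASL, IFIT3 and USP18.

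**Figure D4:**
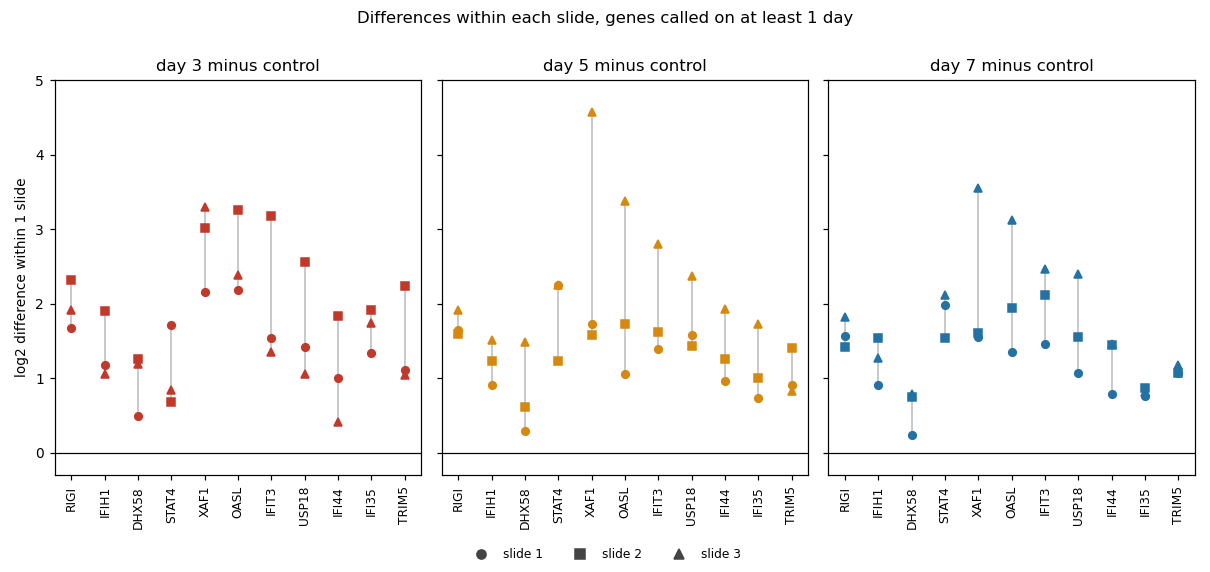
Log2 difference between the array of a day and the control array on the same slide (y axis) for 11 of the 12 members called on at least 1 day (x axis), in separate panels for day 3, day 5 and day 7; marker shape gives the slide. All points lie above 0, and XAF1 spans 1.58 to 4.58 on day 5.

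Upstream of these genes, no interferon ligand could be tested, only receptor and signalling genes. Of 20 listed ligands, receptors and signalling genes 7 were tested, and 1 was higher on day 3, 0 on day 5 and 0 on day 7. That gene was IFNGR2, the signalling chain of the interferon gamma receptor, at 0.16 ± 0.42 on day 3 and -0.98 ± 0.10 in controls (SD, n = 3 each; 2.21-fold higher, limma adjusted p = 0.0121). The median change of the list was 0.09, 0.21 and 0.16 on the 3 days. IFNG, interferon gamma itself, was not well above background on all arrays of any group and was not tested, and the type I interferon genes IFNA1 and IFNB1 had no named probe.

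Of 11 tested genes of nucleic acid and pattern sensing, 3 were higher on each day, and the same genes each time. The shares called higher over all named genes were 4.89%, 1.95% and 1.99%. TLR3, the endosomal receptor for double-stranded RNA, changed by 1.26, 1.49 and 1.46 (adjusted p = 0.0209, 0.0188 and 0.0207); the day 3 call was lost when any of 3 arrays was left out, and the other calls with any of 4 (adjusted p up to 0.0836). With normexp correction TLR3 was called on no day (0.69, 0.83 and 0.82, adjusted p = 0.0541, 0.0514 and 0.0514). TLR4, the receptor for endotoxin and some damage signals, changed by 1.15, 1.46 and 1.39 (adjusted p = 0.00884, 0.00469 and 0.00697). Its day 3 call was lost with only the 2 groups compared (limma adjusted p = 0.0523). CD14, its coreceptor and a macrophage marker, changed by 1.44, 1.81 and 1.55 (adjusted p = 0.00291, 0.00196 and 0.00473). The kinases TBK1 and IKBKE, which pass the signal on to IRF3 and IRF7, gave 0.24 and 0.90 on day 3 and were not called.

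Of 25 tested interferon-induced genes outside the families, 4 were higher on day 3, 3 on day 5 and 3 on day 7, and 0 were lower. Over all named genes 4.89%, 1.95% and 1.99% were higher. EPSTI1, an epithelial-stromal interaction protein induced by interferon, changed by 1.67, 1.61 and 1.51 (adjusted p = 0.00315, 0.00744 and 0.011). With normexp correction the EPSTI1 changes were 0.64, 0.78 and 0.60, and the day 7 call was lost (adjusted p = 0.102). PARP9 and PARP14, ADP-ribosyl transferase family proteins linked to interferon responses, changed by 1.25 and 1.49 on day 3 (adjusted p = 0.0138 and 0.018), and NMI, the partner of IFI35, by 0.78 (adjusted p = 0.018). The NMI call was lost when any of 4 arrays was left out, and the day 3 call of PARP14 without day 3 replicate 2 (adjusted p = 0.0656). With normexp correction PARP14 was called on no day (0.29, 0.59 and 0.39, adjusted p = 0.426, 0.102 and 0.368). The PARP9 and PARP14 calls on days 5 and 7 (adjusted p 0.037 to 0.0496) were lost when any of 6 to 11 arrays was left out and, for PARP9, with normexp correction (adjusted p = 0.0886 and 0.0867). Under a block for the slide the PARP14 calls on days 5 and 7 were lost (adjusted p = 0.074 and 0.0514). The median change of the list was 0.51, 0.52 and 0.36 on the 3 days. The immunoproteasome subunit PSMB9 gave 1.56, 1.65 and 1.09 with an SE of 0.62, and CXCL10, a chemokine induced by interferon gamma, 2.19, 1.53 and 1.45 with an SE of 0.69; neither passed.

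Of the markers of other cells, 4 of 6 of macrophages were called higher on all 3 days. In bulk tissue fewer cells of a type and less RNA per cell cannot be told apart, nor can more cells and more RNA per cell. Of 6 tested macrophage markers, 4 were higher on every day, namely CD68, CD14, MSR1 and MRC1, and ITGAM and CTSS were not called. The summed level of the 6 lay between 2.77 and 3.358 in controls, between 4.374 and 4.66 on day 3, between 4.587 and 5.075 on day 5, and between 4.457 and 4.822 on day 7. CD68, a lysosomal glycoprotein of macrophages, was 4.49-fold, 3.69-fold and 3.99-fold higher (adjusted p = 0.000126, 0.00106 and 0.000618). The MSR1 calls on days 5 and 7 were each lost when any of 4 arrays was left out, and the MRC1 call on day 3 with any of 3. With normexp correction the MSR1 changes were 0.71, 0.80 and 0.63, and those of days 5 and 7 were not called (adjusted p = 0.0507 and 0.122). The part of macrophages in the interferon gene values was not tested.

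Of 6 tested lymphocyte markers, 1 was higher on day 3 and 0 on days 5 and 7, with a summed level between 0.75 and 0.88 in controls, between 1.12 and 1.76 on day 3, between 0.81 and 1.75 on day 5, and between 0.71 and 1.05 on day 7. The 1 gene was CD79B, a B cell receptor subunit, at least 1.75-fold higher on day 3 because 0 of 3 controls were well above background (adjusted p = 0.00708). CD79B thus entered the test only through days after the bleed, so its difference from control was partly set by the filter. With normexp correction its log2 change was 0.35, a fold below that bound, and it was not called (adjusted p = 0.43). Under a block for the slide its day 7 value passed (adjusted p = 0.0166). Such a bound sets the day 3 mean against a control mean in which each array's probe signal is raised, where lower, to the dimmest signal that passed the background flag on that array. CD3E, CD2, CD4 and PRF1 were not well above background on all arrays of any group. The part of lymphocytes in the STAT4 values was not tested. Of 6 neutrophil markers, MMP9, a matrix protease, was lower on day 5 (log2 change -1.71, adjusted p = 0.0249) and day 7 (-2.41, adjusted p = 0.00441), and 0 were higher. Their summed level lay between 1.89 and 2.05 in controls, between 1.68 and 2.28 on day 3, between 1.14 and 1.41 on day 5, and between 1.33 and 2.82 on day 7. CD1D, the 1 dendritic marker tested, was higher on day 3 by 0.72 (adjusted p = 0.0353). The MMP9 call on day 5 was lost when any of 5 arrays was left out and the CD1D call with any of 8, and the CD1D call was lost with normexp correction (0.37, adjusted p = 0.245).

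Markers of the vessel wall and its coat differed as well. Of 9 contractile smooth muscle markers, MYL9 was lower on day 3 (log2 change -0.64, adjusted p = 0.0452), a call lost when any of 8 arrays was left out, and the median changes were -0.58, -0.54 and -0.60. Of 6 leptomeningeal and fibroblast markers, PTGDS, SLC22A6 and SLC22A8 were lower on day 3 by 1.59, 2.56 and 3.24 on the log2 scale, while COL1A1 and LUM were higher. The SLC22A8 call was lost without day 3 replicate 2 (adjusted p = 0.0504). Of 6 endothelial, 2 erythroid and 1 neural markers tested, 0 were called on any day. How far these differences enter the interferon gene values was not tested.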

How the data were processed

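Basilar artery RNA of 12 samples was hybridised to single-colour Agilent arrays, 1 per sample. Per the file headers, the authors' deposited intensity values came from Agilent Feature Extraction 9.5.1.1: the processed signal is background-subtracted and detrended within the array, with no scaling between arrays, and 0 or 1 flags mark spots that are outliers or well above background. The authors' separate deposited values hold intensity on a linear scale with the same median, minimum and maximum on every array, and served as an alternative.

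From the deposited intensity, log2 values were taken, minus each array's 75th percentile over non-control spots. Outlier spots were left out and spots of a probe averaged. A probe was tested if every array of some group flagged it well above background, 3 arrays in all (26434 of 43623 probes). Of all probes, 22603 had 1 gene symbol, 126 several and 20894 none. Old symbols were updated by gene ID through RefSeq names of assembly mOryCun1.1, used for names only. The tested probe with the highest mean over all arrays stood for its gene. All 12 arrays entered 1 limma fit (R 4.3.3, limma 3.58.1) with groups and no block, two-sided, with Benjamini-Hochberg adjustment over all tested probes. The fit was tested on simulated data.

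Members called for at least 2 days against control, and XAF1, are given array by array. Other called members, and a list of well-known family genes called or not, have mean and SD. Of each pathway or marker list, up to 4 called genes were to be named. TBK1, IKBKE, PSMB9, CXCL10, ITGAM, CTSS, IRF2, IRF5 and ISG20L2 fall outside these rules and were chosen after their values were seen. Some members, 1 called member among them, enter the counts but are not reported here. The members and lists were chosen with earlier results of these data known. The alternatives were normexp background correction with an offset of 50, quantile normalization, the authors' values and other filters on dim probes. Further ones were the mean of a gene's probes, array weights and fits of 2 groups. The slide or replicate number as a block and leaving out each array completed them. Summed levels are the log2 of the summed linear signals of a list's tested genes.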

Additional observations from a re-analysis of the deposited data

How the results depend on the processing

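Of the 25 calls of members on days 3, 5 and 7 against control, 9 held in every one of the alternatives that tested them, and 0 changed sign. Among the 9 were RIGI on all 3 days, IFIH1, IFI35, TRIM5 and XAF1 on day 3, and STAT4 on day 5. Counts of members called on days 3, 5 and 7 were 7, 2 and 2 with normexp, 7, 4 and 2 with no filter on dim probes, and 7, 4 and 8 with only the 2 groups compared. Over the 22 members above background on all 12 arrays the counts of this filter were 6 on day 3 and 5 on day 5. Array weights gave 1 member for day 7 against day 3. The F test called 5 with normexp, 4 with no filter and 4 with the filter on all 12 arrays. The F test share over all named genes was not taken for any alternative, so these counts have no matched background. Over all named genes, normexp gave 313, 74 and 84 calls, no filter 252, 82 and 74, and 2 groups 245, 61 and 86, against 513, 160 and 190; the filter on all 12 arrays gave 95 on day 5, and array weights 355 on day 5 and 514 on day 7. Sensing genes called were 1 on day 3 with 2 groups and 5 on day 7 with array weights. Other induced genes called were 2, 1 and 1 with the filter on all 12 arrays. On days 5 and 7 they were 1 and 0 with normexp, 1 and 1 with no filter, and 1 and 1 with 2 groups. The filter on all 12 arrays tests fewer genes and a fit of 2 groups uses fewer samples. The offset of 50 units in normexp makes the log2 changes of dim spots smaller by construction. How far these settings account for the differences was not tested.

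Leaving out 1 array at a time gave between 7 and 12 members on day 3, between 4 and 11 on day 5 and between 2 and 10 on day 7, 0 between days, and 3 to 10 in the F test. Over all named genes it gave 239 to 566, 85 to 218 and 73 to 557 calls. Receptor and signalling genes gave 1 on day 3 and 0 on days 5 and 7. Sensing genes gave 2 to 3, 2 to 3 and 2 to 4, and other induced genes 2 to 6, 1 to 3 and 1 to 4. With the replicate number as a block, which is also the slide, 11, 6 and 6 members were called. Same-numbered samples share a slide and a scan, and their deviations from the group means correlated at -0.153 to 0.387, above 0 in 16 of 18 pairs. The block ended the calls of IFI44 and OASL on day 5 and of IFIT3 on day 7 (adjusted p = 0.0737, 0.0609 and 0.0509). With normexp the median change of all probes was 0.108 for day 5 against control and 0.114 for day 5 against day 3, where the deposited background subtraction gave 0.036 and 0.038. TRIM3, named after its values were seen, was called lower with array weights on days 5 and 7 (-1.52 and -1.53, adjusted p = 0.0217 and 0.0219) and without control replicate 3 on days 3, 5 and 7 (-1.30, -1.74 and -1.73, adjusted p = 0.0101, 0.00601 and 0.00485). Members near background, OASL, XAF1, STAT4 and IFIT3 among them, have control values that are partly not measured.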

Other observations

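The same array was often the highest of its group among the called members, a pattern noticed after the values were seen. Day 3 replicate 2 was the highest of the 3 day 3 arrays for 10 of the 11 members called on that day, against 28.25% of all named genes. Day 5 replicate 3 was the highest for 8 of 8, against 41.33%, and day 7 replicate 3 for 5 of 6, against 33.43%. The summed macrophage marker level of day 3 replicate 2 was 4.374, the lowest of its group, whose other arrays stood at 4.66 and 4.521. That of day 5 replicate 3 was 5.075, the highest of its group, beside 4.736 and 4.587. That of day 7 replicate 3 was 4.822, also the highest of its group, beside 4.783 and 4.457. Whether the 2 patterns are linked was not tested.

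Probes that the array lists only as expressed sequence tags overlap some member probes. One shares 44 bases with a RIGI probe and gave 1.24, 0.95 and 1.36 on days 3, 5 and 7 (limma adjusted p = 0.0314, 0.148 and 0.0384). One shares 43 bases with the OASL probe and gave 0.24, 0.70 and 0.26 (adjusted p = 0.62, 0.188 and 0.608), against 2.61, 2.05 and 2.14 for the OASL probe. Which of the overlapping OASL probes reads the transcript better was not tested.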
